A study of Caenorhabditis elegans with 9 samples.

Results

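The results concern 10 genes of the moult and the apical extracellular matrix of the nematode Caenorhabditis elegans: fbn-1, noah-1, noah-2, mlt-8, mlt-10, mlt-11, nas-36, nas-37, bli-5 and lrp-1. They were chosen by name from what is known of the moult, with earlier results of these data known. They were matched by gene symbol, and all 10 were found among the 46926 annotated genes and among the 17512 that had enough reads to be tested. Messenger RNA was sequenced from whole bodies of synchronized young adults after poly(A) enrichment, in 9 libraries of 3 genotypes labelled UNC5, PATR1 and WT, with 3 libraries each. The design text describes wild type animals and unc-5(Cys348*) mutants, which carry a stop codon in the gene for a netrin guidance receptor. The labels do not say whether UNC5 or PATR1 is that mutant or what PATR1 stands for, and they name no treatment, no other allele and no sex.

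C. elegans is covered by a collagenous cuticle that the epidermis secretes at its apical face. At the end of each larval stage a new cuticle is laid down under the old one, which is then loosened by secreted proteases and shed, and the adult no longer moults. During the build-up the epidermis carries a transient apical matrix of zona pellucida domain and fibrillin-like proteins, and many of the genes concerned are known to switch on and off once in every larval moulting cycle under nuclear receptors such as NHR-23.

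The UNC5 libraries held 38673206 to 45911861 reads in genes, the PATR1 libraries 40657619 to 55150409 and the WT libraries 56713370 to 60642199. The share of reads without a place in the genome was 0.667% to 0.937% in UNC5, 2.86% to 6.02% in PATR1 and 0.621% to 0.629% in WT, and was highest in PATR1 replicate 1. unc-5 itself averaged 10.1 ± 0.22 CPM (read counts scaled to a common library size) in UNC5, 13.5 ± 0.63 in PATR1 and 17.8 ± 0.97 in WT (SD, n = 3 each), and was lower in UNC5 by a log2 fold change of -0.82 ± 0.058 (SE, adjusted p = 2.9e-14) and in PATR1 by -0.40 ± 0.054 (SE, adjusted p = 4.5e-08) against WT. The gene patr-1, whose name resembles a label, averaged 300 ± 9.1 CPM in UNC5, 293 ± 4.8 CPM in PATR1 and 231 ± 5.0 CPM in WT (SD, n = 3 each). Against WT it was higher in UNC5 by 0.38 ± 0.032 on the log2 scale (SE, adjusted p = 2.3e-12) and in PATR1 by 0.34 ± 0.032 (SE, adjusted p = 1.8e-11). No label tells whether the replicates came from separate cultures, and the p-values cover no more than the variation among these libraries, part or all of which may be technical.

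All 10 genes were highest in UNC5, lowest in PATR1 and in between in WT, and for none of them did the libraries of any pair of genotypes overlap. Their summed level was 1944 to 2030 CPM in UNC5, 802 to 840 CPM in PATR1 and 1377 to 1431 CPM in WT. The order of UNC5 over WT over PATR1 without overlap held for 11.7% of the 17512 tested genes. Both comparisons with WT use the same 3 WT libraries, so they are not independent of each other. In whole animals, fewer cells of a type and less RNA per cell cannot be told apart.

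**Figure D1:**
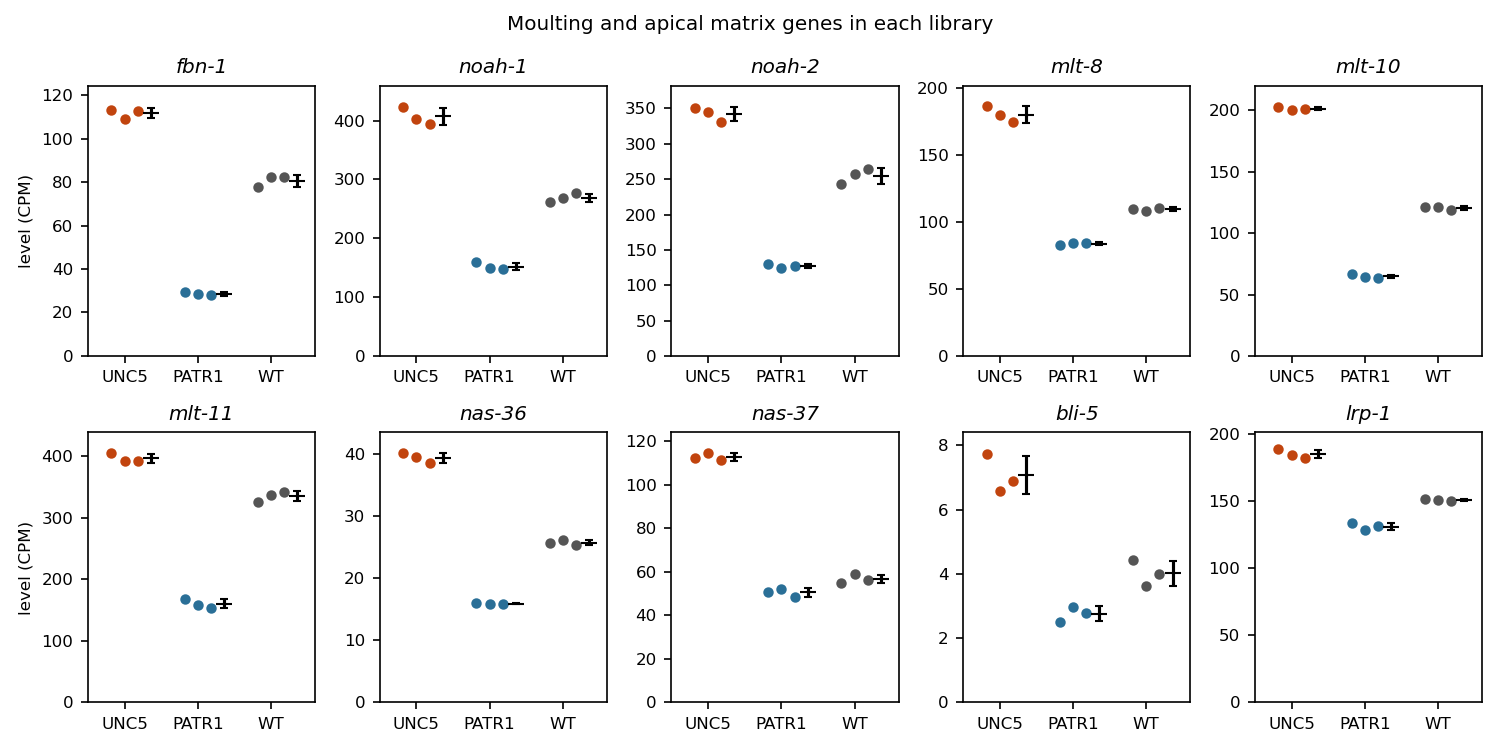
Level of each of the 10 genes (vertical axis, CPM on a linear scale from 0) in the 3 libraries of UNC5, PATR1 and WT; points are libraries and the bar beside them is the mean ± SD. In every panel the UNC5 points lie above the WT points and the PATR1 points below them. The gap between PATR1 and WT is narrow in the nas-37, bli-5 and lrp-1 panels.

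Against WT, all 10 genes were higher in UNC5 at an adjusted p below 0.05, the threshold at which a gene is said here to have risen or fallen. Of all tested genes, 49.8% were higher in UNC5 by the same threshold, so a rise at this threshold was common, and 50.4% of all genes had every UNC5 library above every WT library. The median log2 fold change was 0.61 over the 10 genes and 0.16 over all tested genes. None of the 10 passed the study's stricter threshold of an adjusted p below 0.05 with more than a 2-fold change, by edgeR or by DESeq2, against 7.09% of all genes that did so upward. nas-37 crossed that mark when WT replicate 2 or UNC5 replicate 3 was left out, which gave 1 of 10.

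Against WT, all 10 genes were lower in PATR1 at an adjusted p below 0.05, as were 44.9% of all tested genes, and 45.2% of all genes had every PATR1 library below every WT library. Their median log2 fold change was -0.76, beside -0.11 over all tested genes. The drop exceeded 2-fold for fbn-1, noah-2 and mlt-11, which is 3 of 10, where 10.5% of all genes were called lower by that rule. In PATR1 against UNC5, all 10 were lower at an adjusted p below 0.05, as were 40.9% of all genes, and 9 of the 10, all except lrp-1, were lower by more than 2-fold, as were 11.5% of all genes. The median log2 fold change of that comparison was -1.33 over the 10 genes and -0.04 over all genes, and 41.3% of all genes had every PATR1 library below every UNC5 library.

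**Figure D2:**
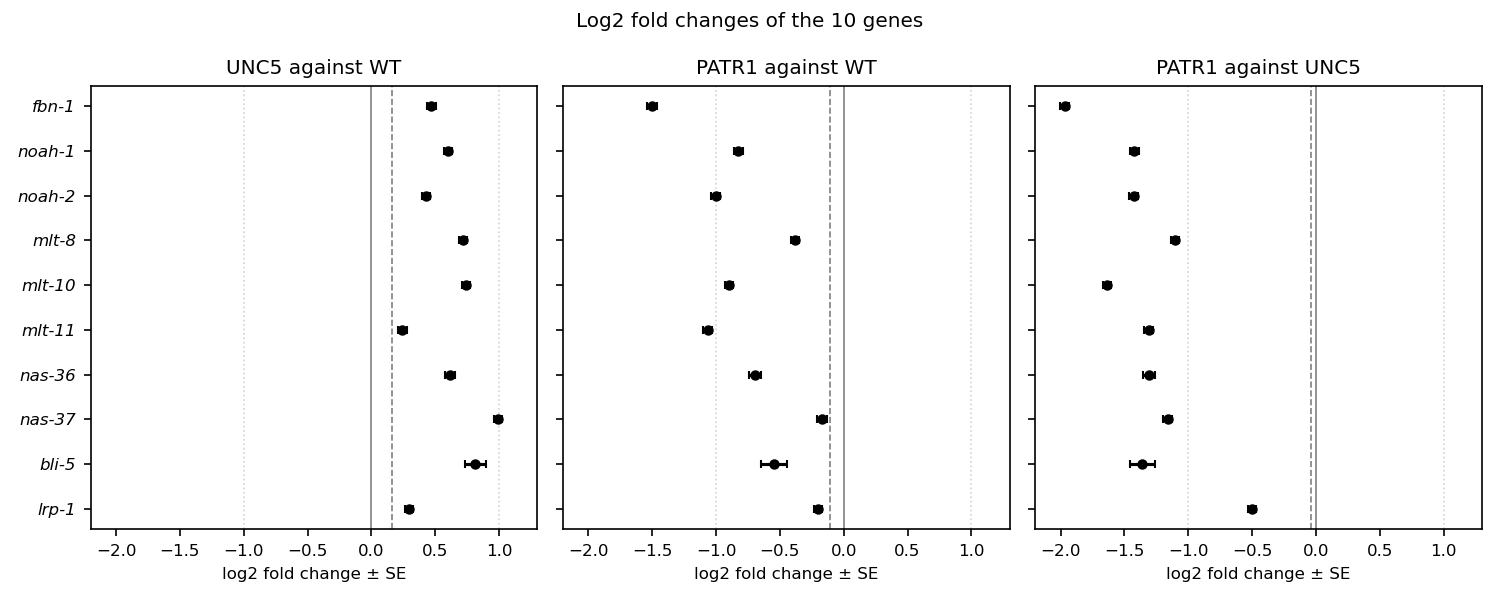
Log2 fold change (horizontal axis) ± SE of each of the 10 genes in UNC5 against WT, PATR1 against WT and PATR1 against UNC5; the dashed line is the median of all tested genes and the dotted lines mark a 2-fold change. Points lie right of 0 in the first panel and left of 0 in the others; fbn-1 is farthest left in both panels of PATR1, and nas-37 and lrp-1 are closest to the dashed line in PATR1 against WT.

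Among the 10 genes, fbn-1 varied most between the genotypes. fbn-1 (WBGene00022816, chromosome III, 7625386 to 7641078, plus strand, WBcel235) encodes a fibrillin-like protein with many EGF-type repeats that helps the epidermis to withstand mechanical strain. It had 114, 109 and 113 CPM in UNC5, 29.4, 28.4 and 27.9 CPM in PATR1, and 77.6, 82.2 and 82.4 CPM in WT. The 3 groups stood far apart, and the libraries of each genotype lay close to each other. fbn-1 rose in UNC5 by a log2 fold change of 0.47 ± 0.034 (SE, adjusted p = 4.4e-14) and fell in PATR1 by 1.50 ± 0.038 on the log2 scale (SE, adjusted p = 3.5e-26), to 35.4% of its WT level. It was the gene with the largest fall of the 10 in both comparisons of PATR1, at -1.97 ± 0.038 (SE, adjusted p = 3.8e-29) against UNC5.

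noah-1 and noah-2 encode zona pellucida domain proteins of the apical matrix, named after the Drosophila protein NompA, which ties sensory dendrites to the cuticle. noah-1 (WBGene00016422, chromosome I, 5874416 to 5878958, minus strand) had 423, 403 and 394 CPM in UNC5, 159, 149 and 147 CPM in PATR1, and 262, 268 and 276 CPM in WT. noah-2 (WBGene00009926, chromosome IV, 14091254 to 14096626, plus strand) had 350.0, 345 and 330.3 CPM in UNC5, 130.3, 124 and 127 CPM in PATR1, and 242, 257 and 264 CPM in WT. Both were highest in UNC5 and lowest in PATR1, with no library of one genotype inside the range of another. noah-1 rose by 0.60 ± 0.034 on the log2 scale in UNC5 (SE, adjusted p = 1.3e-16) and fell by 0.82 ± 0.035 in PATR1 (SE, adjusted p = 5.2e-20). noah-2 rose by 0.43 ± 0.034 in UNC5 (SE, adjusted p = 4.8e-13), and its fall in PATR1 lay right at the 2-fold mark, with a log2 fold change of -1.001 ± 0.035 (SE, adjusted p = 2.1e-22) and a level 49.9% of that in WT. The fall was just short of 2-fold, with its smallest log2 fold change at -0.98, when any UNC5 library, WT replicate 3 or PATR1 replicate 2 or 3 was left out, which left 2 of the 10 genes beyond 2-fold in those fits. The ratio of noah-1 to noah-2 within a library was 1.17 to 1.21 in UNC5, 1.16 to 1.22 in PATR1 and 1.04 to 1.08 in WT, so the pair moved nearly but not exactly in step.

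mlt-8 and mlt-10 were first known from animals that could not complete the moult when either gene was silenced, and the promoter of mlt-10 is widely used to follow moulting cycles. mlt-8 (WBGene00021095, chromosome II, 569210 to 572110, minus strand) had 187, 179 and 174 CPM in UNC5, 82.9, 84.2 and 84.5 CPM in PATR1, and 109, 108 and 111 CPM in WT. mlt-10 (WBGene00015646, chromosome II, 546705 to 552032, plus strand) had 202, 200.3 and 201 CPM in UNC5, 66.5, 64.3 and 63.4 CPM in PATR1, and 122, 121 and 119 CPM in WT. The groups did not overlap for either gene, and the PATR1 libraries lay closer to WT for mlt-8 than for mlt-10. The rises in UNC5 were alike, at 0.72 ± 0.031 for mlt-8 (SE, adjusted p = 6.1e-20) and 0.74 ± 0.030 for mlt-10 (SE, adjusted p = 8.1e-21) on the log2 scale. The falls in PATR1 were 0.38 ± 0.032 for mlt-8 (SE, adjusted p = 1.1e-12) and 0.90 ± 0.031 for mlt-10 (SE, adjusted p = 2.5e-22). The ratio of mlt-8 to mlt-10 was accordingly 0.865 to 0.922 in UNC5, 1.25 to 1.33 in PATR1 and 0.894 to 0.931 in WT.

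The genes mlt-10 and mlt-8 lie on opposite strands of chromosome II with 17.2 kb between their nearest ends. In that gap stand the tested coding genes C09E8.1 and W08F4.5, and lips-7 reaches into it from an overlap with mlt-10. These 3 were singled out here for their place. lips-7 averaged 12.9 ± 1.1 CPM in UNC5, 7.10 ± 0.37 CPM in PATR1 and 11.7 ± 0.28 CPM in WT (SD, n = 3 each), with log2 fold changes against WT of 0.14 in UNC5 (adjusted p = 0.046) and -0.72 in PATR1 (adjusted p = 1.7e-11). C09E8.1 averaged 72.2 ± 0.77 CPM in UNC5 and 71.8 ± 2.6 CPM in WT (SD, n = 3 each), and its UNC5 difference did not pass (adjusted p = 0.85). W08F4.5, a low gene, averaged 1.36 ± 0.083 CPM in UNC5 and 1.23 ± 0.057 CPM in WT (SD, n = 3 each), and did not pass either (adjusted p = 0.39). In UNC5 the log2 fold changes of these 3 genes were thus 0.14 or less, beside 0.72 for mlt-8 and 0.74 for mlt-10, while in PATR1 C09E8.1 fell by 0.33 (adjusted p = 5.6e-10) and W08F4.5 by 0.45 (adjusted p = 0.0079). mlt-10 shares 109 exonic bases with lips-7 and 16 with T27A1.3 on the same strand, where reads cannot be given to one gene or the other. T27A1.3, outside the gap at the other end of mlt-10, had at most 29 reads in a library. It averaged 0.48 ± 0.080 CPM in UNC5, 0.57 ± 0.065 CPM in PATR1 and 0.19 ± 0.046 CPM in WT (SD, n = 3 each). Against WT it rose by 1.34 in UNC5 (adjusted p = 1.1e-04) and by 1.59 on the log2 scale in PATR1 (adjusted p = 3.6e-06).

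mlt-11 and bli-5 encode secreted proteins with Kunitz-type protease inhibitor domains, a fold known for blocking serine proteases. mlt-11 (WBGene00012186, chromosome V, 20667205 to 20678537, plus strand) had 405, 393 and 392 CPM in UNC5, 168, 159 and 154 CPM in PATR1, and 326, 338 and 342 CPM in WT. Its UNC5 libraries lay only a little above WT and its PATR1 libraries far below. mlt-11 rose in UNC5 by 0.24 ± 0.033 on the log2 scale (SE, adjusted p = 9.0e-08), the smallest rise of the 10, and fell in PATR1 by 1.07 ± 0.034 (SE, adjusted p = 2.8e-23), to 47.8% of its WT level. Its rise in UNC5 no longer passed when genes with few reads were kept in the fit, with a log2 fold change of 0.07 (adjusted p = 0.051).

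bli-5 (WBGene00000255, chromosome III, 13427640 to 13429768, minus strand), whose mutants form fluid-filled blisters in the cuticle, was the lowest of the 10 genes. It had 7.74, 6.59 and 6.89 CPM in UNC5, 2.51, 2.96 and 2.80 CPM in PATR1, and 4.42, 3.63 and 3.998 CPM in WT. The groups did not overlap, but the libraries within each group differed more, in relation to their mean, than those of the other 9 genes, and a bli-5 value rests on as few as 111 reads. bli-5 rose by 0.81 ± 0.086 on the log2 scale in UNC5 (SE, adjusted p = 3.6e-10) and fell by 0.54 ± 0.10 in PATR1 (SE, adjusted p = 1.2e-05). It shares 82 exonic bases with cope-1 on the opposite strand, and 32.6% to 58.4% of the reads at bli-5 lay on that strand and were not counted for it.

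nas-36 and nas-37 encode astacin-type zinc metalloproteases needed to open and shed the old cuticle. nas-36 (WBGene00003552, chromosome I, 7527224 to 7531715, plus strand) had 40.1, 39.5 and 38.5 CPM in UNC5, 16.1, 15.9 and 15.8 CPM in PATR1, and 25.6, 26.2 and 25.4 CPM in WT. nas-37 (WBGene00003553, chromosome X, 9944844 to 9949063, minus strand) had 112, 115 and 111 CPM in UNC5, 50.9, 52.2 and 48.5 CPM in PATR1, and 55.0, 58.9 and 56.5 CPM in WT. nas-37 stood far above WT in UNC5, while its PATR1 and WT libraries lay close together without overlap, whereas nas-36 was well apart in all 3 genotypes. nas-37 rose in UNC5 by 0.99 ± 0.035 on the log2 scale (SE, adjusted p = 3.0e-22), the largest rise of the 10, and its level was 199% of that in WT. In PATR1 it fell by 0.17 ± 0.037 (SE, adjusted p = 9.8e-05), the smallest fall of the 10. nas-36 rose by 0.61 ± 0.041 in UNC5 (SE, adjusted p = 6.3e-15) and fell by 0.69 ± 0.045 in PATR1 (SE, adjusted p = 2.6e-15). Within a library, nas-37 stood at 2.80 to 2.91 times nas-36 in UNC5, 3.07 to 3.28 times in PATR1 and 2.15 to 2.25 times in WT.

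lrp-1 (WBGene00003071, chromosome I, 7614176 to 7634143, plus strand) encodes a megalin-like endocytic receptor on the apical face of the epidermis, and is needed for the moult. It had 189, 185 and 182 CPM in UNC5, 134, 129 and 131 CPM in PATR1, and 152, 151 and 150.1 CPM in WT. The 3 genotypes kept the common order with no overlap, but UNC5 and PATR1 lay closer together than for the other 9 genes. lrp-1 rose by 0.295 ± 0.030 on the log2 scale in UNC5 (SE, adjusted p = 1.4e-10) and fell by 0.20 ± 0.030 in PATR1 (SE, adjusted p = 2.6e-07). In PATR1 against UNC5 its log2 fold change of -0.50 ± 0.030 (SE, adjusted p = 7.4e-16) was the only one of the 10 that did not reach 2-fold, while the other 9 ran from -1.10 for mlt-8 to -1.97 for fbn-1.

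Ratios between the genes within a library need no scaling between libraries. The 2 pairs given next were picked after the fold changes were seen, nas-37 and fbn-1 for standing at the extremes, and they describe the same differences in another form. nas-37 stood at 0.989, 1.05 and 0.989 times fbn-1 in UNC5, at 1.73, 1.84 and 1.74 times in PATR1, and at 0.710, 0.716 and 0.685 times in WT. mlt-11 stood at 2.00, 1.96 and 1.95 times mlt-10 in UNC5, at 2.53, 2.47 and 2.43 times in PATR1, and at 2.68, 2.79 and 2.88 times in WT. The 3 genotypes did not overlap in either ratio. Nor did they overlap in nas-37 over nas-36, given above. By contrast, noah-1 over noah-2 overlapped between UNC5 and PATR1, and mlt-8 over mlt-10 between UNC5 and WT. An exact two-sided permutation test of 3 libraries against 3 cannot give a p below 0.10, so none is given for these ratios.

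**Figure D3:**
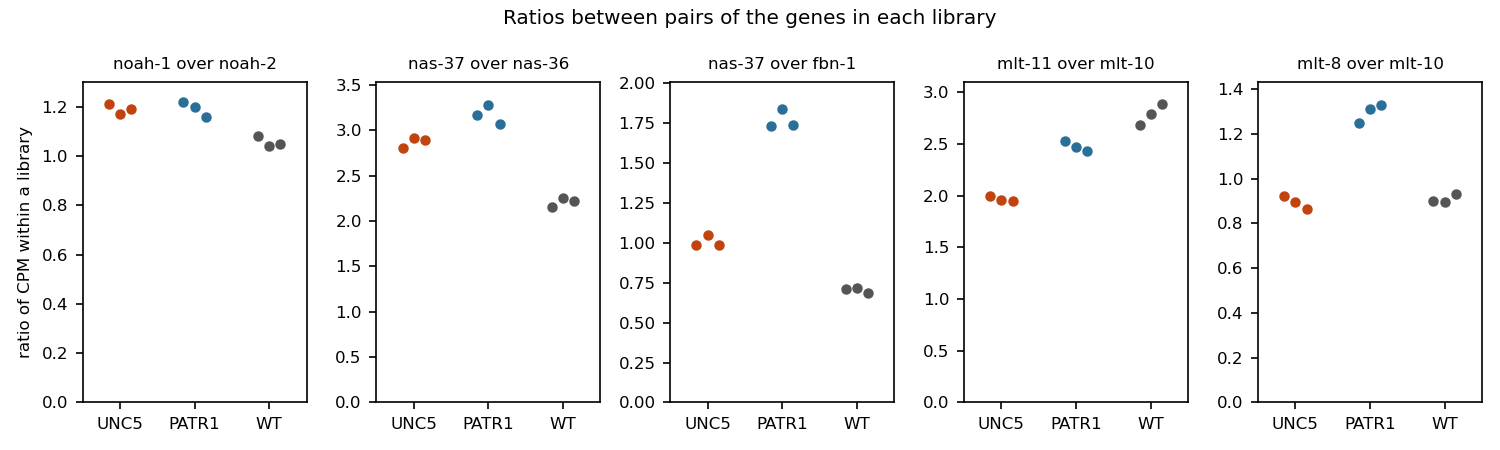
Ratio of the CPM values of 2 genes within each library (vertical axis, linear from 0) for 5 pairs of the 10 genes; each point is a library of UNC5, PATR1 or WT. nas-37 over fbn-1 is highest in PATR1 and lowest in WT, mlt-11 over mlt-10 is lowest in UNC5, and mlt-8 over mlt-10 is raised in PATR1 while UNC5 and WT overlap.

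Where libraries are scaled to one another, the middle of all genes matters for the smallest changes. The median log2 fold change of all genes in UNC5 against WT was 0.16 with TMM factors, 0.06 with relative log expression factors, 0.11 when library totals alone were used and 0.00 when genes with few reads were kept. Measured from that median, the rise in UNC5 was 0.08 for mlt-11 (0.06 to 0.10 over all settings), 0.14 for lrp-1 (0.12 to 0.16) and 0.83 for nas-37 (0.81 to 0.85). In PATR1 against WT the median of all genes was -0.11 with TMM factors, -0.16 with relative log expression factors and -0.23 when library totals alone were used. Measured from it, the change in PATR1 was -0.06 for nas-37 (-0.10 to -0.02 over all settings), -0.10 for lrp-1 (-0.13 to -0.08) and -1.39 for fbn-1 (-1.43 to -1.37). The signs of all 10 genes relative to the median were the same under every setting in both comparisons.

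Compared with each other, the genes covered a wide range of levels. Per kilobase of exon (CPM divided by summed exon length, or RPKM), mlt-8 led in UNC5 with 163, in PATR1 with 75.8 and, beside noah-2, in WT with 99.0. In WT, noah-2 had 99.2 ± 4.3 RPKM and mlt-8 had 99.0 ± 1.1 RPKM (SD, n = 3 each), a difference smaller than their spread. noah-1 and mlt-10 followed in WT with 70.8 and 51.5 RPKM, mlt-11 and nas-37 with 34.2 and 22.3 RPKM, and nas-36, lrp-1, fbn-1 and bli-5 with 11.4, 10.3, 8.45 and 5.38 RPKM. In UNC5 the order was mlt-8, noah-2, noah-1, mlt-10, nas-37, mlt-11, nas-36, lrp-1, fbn-1 and bli-5, so that nas-37 with 44.4 RPKM stood above mlt-11 with 40.5 RPKM. In PATR1 fbn-1 was last with 2.99 RPKM, below bli-5 with 3.69 RPKM, and lrp-1 with 8.92 RPKM stood above nas-36 with 7.03 RPKM.

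**Figure D4:**
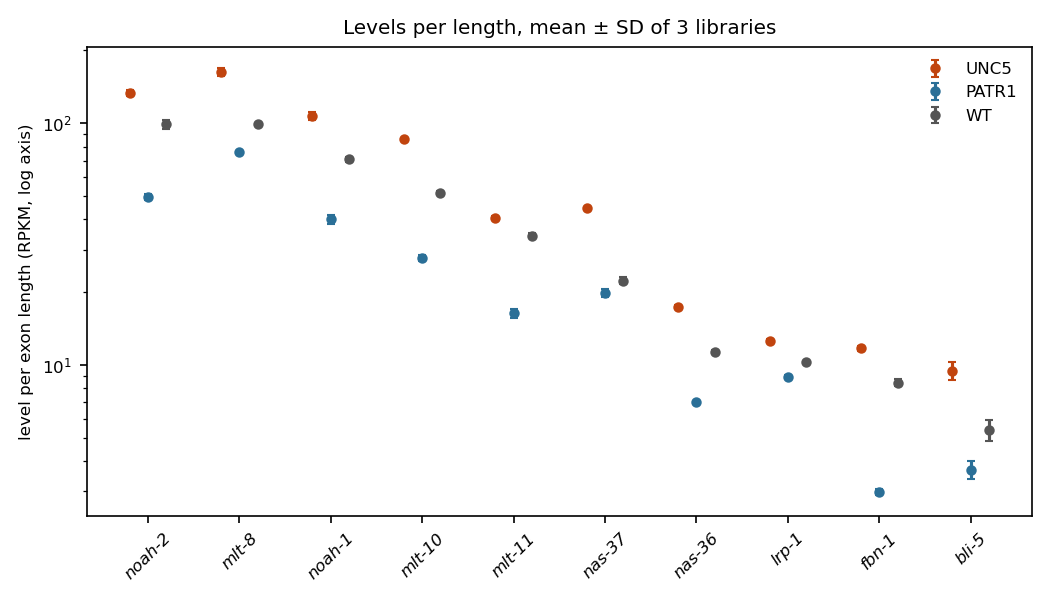
Level per exon length of the 10 genes (vertical axis, RPKM on a log axis) as mean ± SD of 3 libraries in UNC5, PATR1 and WT, with genes ordered by their WT level. Levels span from 163 RPKM for mlt-8 in UNC5 to 2.99 RPKM for fbn-1 in PATR1, and each gene shows UNC5 on top and PATR1 at the bottom.

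Replicates were close. The common coefficient of variation in edgeR, the spread between libraries of a genotype beyond counting error, was 3.14% over all genes. UNC5 replicate 1 lay above its group mean for 9 of the 10 genes, by a median of 0.03 on the log2 scale, and UNC5 replicate 3 below it for 9 of 10, by a median of -0.03. PATR1 replicate 1, which had the most reads without a place in the genome, lay above its group mean for 8 of 10 genes, by a median of 0.03. These deviations are small beside the differences between genotypes, and all 10 rises and all 10 falls passed when any of the 9 libraries was left out.

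The genes that set the timing of the moult were divided in UNC5 and mostly lower in PATR1. Of 12 transcription factors and partners, 6 were higher in UNC5, 5 were lower and 1 did not pass, with a median log2 fold change of 0.05. The 6 became 3 when genes with few reads were kept or on the 6 libraries compared, and the 5 became 3 without WT replicate 3 or UNC5 replicate 2. In PATR1, 11 of the 12 fell and 1 did not pass, with a median of -0.66. As background for this and the lists that follow, 8727 of all 17512 tested genes were higher and 4728 lower in UNC5. In PATR1, 6780 of all tested genes were higher and 7860 lower. The median log2 fold change of all tested genes was 0.16 in UNC5 and -0.11 in PATR1. nhr-23, the nuclear receptor that drives larval moulting genes and one of the 2 factors singled out here after their values were seen, had 64.9, 60.9 and 60.9 CPM in UNC5 and 74.2, 68.3 and 68.6 CPM in PATR1, against 64.9, 66.5 and 70.0 CPM in WT. Its libraries overlapped with WT in both comparisons. nhr-23 was lower in UNC5 by a log2 fold change of -0.11 ± 0.039 (SE, adjusted p = 0.012), a difference that did not pass without WT replicate 3 (adjusted p = 0.079), UNC5 replicate 2 (adjusted p = 0.057) or UNC5 replicate 3 (adjusted p = 0.059). Its PATR1 difference of 0.07 ± 0.038 did not pass (SE, adjusted p = 0.10) and had the opposite sign, at -0.054, with library sizes alone. nhr-25, a related receptor of the moult and the other factor singled out, had 26.7, 28.1 and 25.4 CPM in UNC5 and 11.6, 10.3 and 10.8 CPM in PATR1, against 12.8, 12.97 and 14.03 CPM in WT, with no overlap. nhr-25 rose by 1.01 ± 0.053 on the log2 scale in UNC5 (SE, adjusted p = 1.5e-17) and fell by 0.29 ± 0.060 in PATR1 (SE, adjusted p = 5.9e-05).

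Of the other timing genes named by the rule, all fell in PATR1, and all but lin-42 fell in UNC5. myrf-1, a membrane-bound transcription factor, averaged 123 ± 6.0 CPM in UNC5, 66.5 ± 2.6 CPM in PATR1 and 155 ± 3.8 CPM in WT (SD, n = 3 each), with log2 fold changes against WT of -0.33 in UNC5 (adjusted p = 3.2e-10) and -1.22 in PATR1 (adjusted p = 2.8e-24). blmp-1, a zinc finger factor, had log2 fold changes of -0.14 in UNC5 (adjusted p = 0.0023) and -1.07 in PATR1 (adjusted p = 1.4e-20). pan-1, which encodes a transmembrane partner of MYRF-1, had -0.10 in UNC5 (adjusted p = 0.0038) and -0.75 in PATR1 (adjusted p = 3.4e-20). lin-42, the Period-like gene whose RNA cycles with the larval moults, rose by 0.27 in UNC5 (adjusted p = 2.0e-08) and fell by 0.87 on the log2 scale in PATR1 (adjusted p = 8.7e-21).

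Membrane traffic genes, some of which act with LRP-1, rose more often than they fell in PATR1, while their count in UNC5 depended on the scaling. Of 12 genes of the NEKL-MLT kinase complexes and clathrin-mediated endocytosis, 11 rose and 1 fell in UNC5. Their median log2 fold change in UNC5 was 0.20, beside 0.16 over all tested genes. In PATR1, 7 rose, 3 fell and 2 did not pass, with a median of 0.16, beside -0.11 over all tested genes. The 11 rises in UNC5 became 7 with relative log expression factors or DESeq2, 6 on the 6 libraries compared and 4 when genes with few reads were kept. dab-1, which encodes the Disabled adaptor for receptors of the LRP family, averaged 287 ± 5.7 CPM in UNC5, 287 ± 9.6 CPM in PATR1 and 201 ± 6.9 CPM in WT (SD, n = 3 each). It rose by 0.51 ± 0.033 on the log2 scale in UNC5 (SE, adjusted p = 2.8e-15) and by 0.51 ± 0.033 in PATR1 (SE, adjusted p = 1.9e-15), where lrp-1 fell. fcho-1, which encodes a factor that starts clathrin-coated pits, rose by 0.23 in UNC5 (adjusted p = 4.7e-07) and by 0.57 in PATR1 (adjusted p = 3.5e-16). mlt-3, which encodes an ankyrin repeat partner of a NEKL kinase, rose by 0.52 in UNC5 (adjusted p = 1.4e-11) and fell by 0.38 on the log2 scale in PATR1 (adjusted p = 3.8e-08).

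Of 10 hedgehog-related, patched-related and apical secretion genes, 9 rose and 1 fell in UNC5, with a median log2 fold change of 0.42, and 2 rose and 8 fell in PATR1, with a median of -0.46; with library sizes alone 1 rose in PATR1. ptr-6, a patched-related gene, rose by 0.99 ± 0.043 in UNC5 (SE, adjusted p = 8.0e-20) and fell by 0.20 ± 0.047 on the log2 scale in PATR1 (SE, adjusted p = 2.5e-04), values close to those of nas-37. qua-1, which encodes a hedgehog-related protein needed for the moult, rose by 0.84 in UNC5 (adjusted p = 2.3e-19) and fell by 0.30 in PATR1 (adjusted p = 1.3e-08). wrt-10, a hedgehog-related gene, rose by 0.56 in UNC5 (adjusted p = 1.8e-14) and fell by 1.09 in PATR1 (adjusted p = 4.4e-21).

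Other proteins of the apical matrix were more divided. Of 11, 8 rose and 3 fell in UNC5, with a median log2 fold change of 0.20, and 1 rose, 8 fell and 2 did not pass in PATR1, with a median of -1.07. The 8 rises became 5 when genes with few reads were kept or on the 6 libraries compared. sym-1, a leucine-rich repeat matrix protein, had 184, 185 and 185 CPM in UNC5 and 58.8, 58.8 and 58.5 CPM in PATR1, against 121, 125 and 127 CPM in WT. It rose by 0.57 in UNC5 (adjusted p = 8.5e-18) and fell by 1.08 on the log2 scale in PATR1 (adjusted p = 2.2e-24). cut-6, which encodes a zona pellucida domain cuticlin, went far down in both genotypes, with a mean of 5.24 ± 0.12 CPM in UNC5, 2.64 ± 0.33 CPM in PATR1 and 62.2 ± 1.1 CPM in WT (SD, n = 3 each). Its log2 fold changes against WT were -3.57 ± 0.056 in UNC5 (SE, adjusted p = 4.5e-32) and -4.57 ± 0.062 in PATR1 (SE, adjusted p = 9.5e-34). dex-1, another gene of this list, averaged 23.6 ± 0.62 CPM in UNC5, 25.8 ± 1.2 CPM in PATR1 and 101 ± 2.8 CPM in WT (SD, n = 3 each). It fell by 2.10 in UNC5 (adjusted p = 1.8e-29) and by 1.97 on the log2 scale in PATR1 (adjusted p = 7.9e-29). noah-1 and noah-2 therefore moved opposite to cut-6 in UNC5, although cut-6 also encodes a zona pellucida domain protein.

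Other enzymes of cuticle making and moulting were divided in UNC5 and mostly lower in PATR1. Of 12, 3 rose, 5 fell and 4 did not pass in UNC5, with a median log2 fold change of -0.09, and 11 fell and 1 did not pass in PATR1, with a median of -0.46. The 5 falls in UNC5 became 9 with relative log expression factors, on the 6 libraries compared or when genes with few reads were kept, and 8 with DESeq2. bli-3, the dual oxidase that cross-links cuticle proteins, averaged 60.3 ± 1.7 CPM in UNC5, 41.1 ± 1.4 CPM in PATR1 and 103 ± 1.3 CPM in WT (SD, n = 3 each), and fell in both genotypes (adjusted p = 2.0e-19 in UNC5 and 2.6e-25 in PATR1). dpy-18, a subunit of the collagen prolyl hydroxylase, fell by 0.71 in UNC5 (adjusted p = 3.3e-19) and by 0.84 on the log2 scale in PATR1 (adjusted p = 4.4e-21). acn-1, an inactive relative of angiotensin-converting enzyme needed for the moult, rose by 0.45 in UNC5 (adjusted p = 4.7e-15) and fell by 0.51 in PATR1 (adjusted p = 3.1e-16).

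Of 12 cuticle collagens, 8 rose and 4 fell in UNC5, with a median log2 fold change of 0.61, and 11 fell and 1 did not pass in PATR1, with a median of -0.47. dpy-13 rose by 0.84 in UNC5 (adjusted p = 2.3e-20) and fell by 0.17 on the log2 scale in PATR1 (adjusted p = 6.0e-05). The adult collagens col-19 and col-7 fell in both genotypes, col-19 by 1.43 in UNC5 (adjusted p = 1.5e-27) and 0.20 in PATR1 (adjusted p = 6.9e-07), and col-7 by 3.16 in UNC5 (adjusted p = 1.6e-31) and 2.21 in PATR1 (adjusted p = 1.8e-28), all on the log2 scale.

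**Figure D5:**
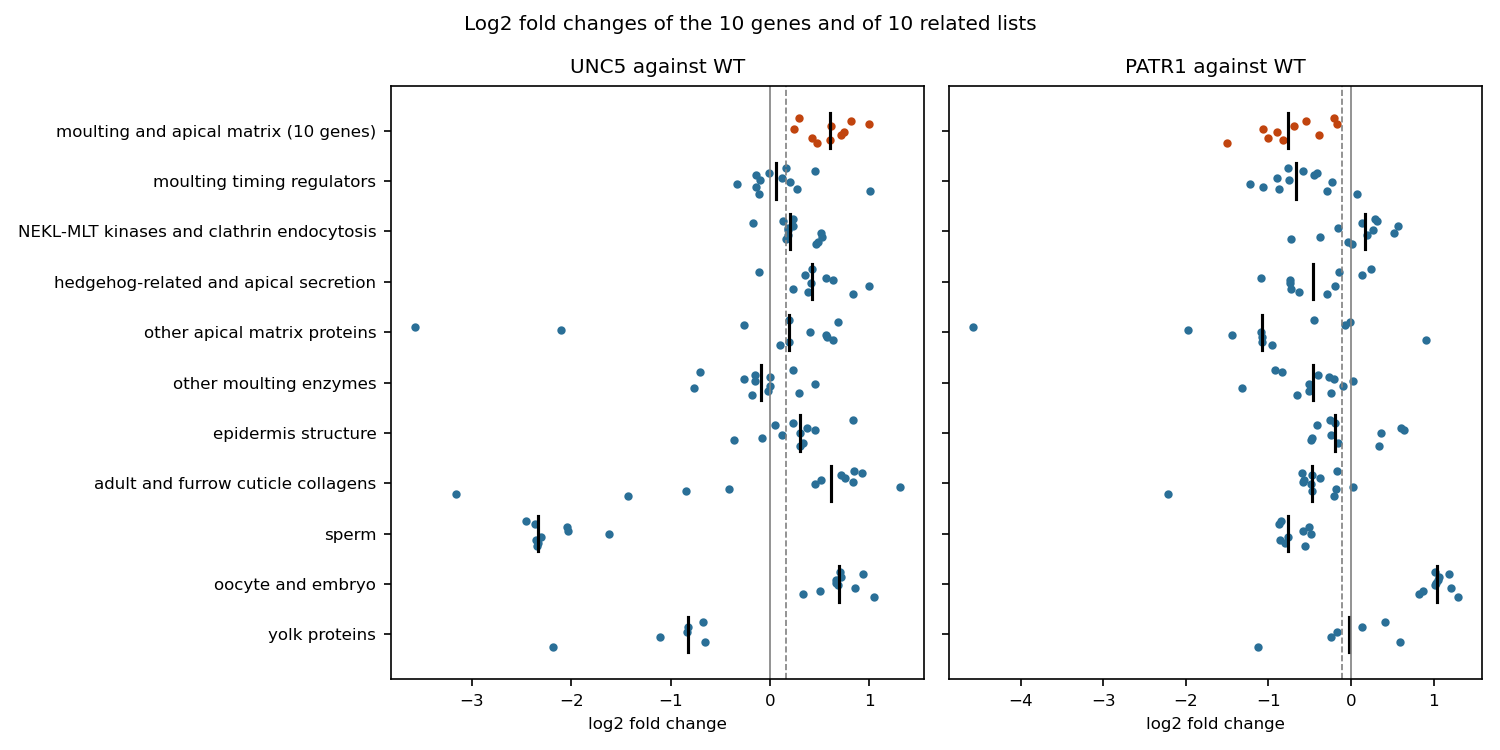
Log2 fold change (horizontal axis) in UNC5 against WT and in PATR1 against WT for the 10 genes, in red, and for 10 related lists, in blue; each point is a gene, the black bar is the list's median and the dashed line the median of all tested genes. The 10 genes have a median of 0.61 in UNC5 and -0.76 in PATR1, while the sperm list lies left of 0 in both panels and the oocyte and embryo list right of 0.

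Markers of tissues in whole animals also differed between the genotypes. The summed level of 11 structural genes of the epidermis, which secretes the matrix, was 2489 to 2504 CPM in UNC5, 2012 to 2110 CPM in PATR1 and 2113 to 2218 CPM in WT, with none at 0 in any library. Of these, 8 rose, 1 fell and 2 did not pass in UNC5, and 4 rose, 6 fell and 1 did not pass in PATR1. The 1 fall in UNC5 became 2 without WT replicate 1 or UNC5 replicate 3 and 2 to 3 under other scalings and filters. hmp-1, which encodes alpha-catenin, rose by 0.45 in UNC5 (adjusted p = 1.2e-13) and by 0.64 in PATR1 (adjusted p = 7.7e-18), while the junction gene ajm-1 fell by 0.37 in UNC5 (adjusted p = 3.5e-12) and by 0.49 on the log2 scale in PATR1 (adjusted p = 1.7e-15). Relative to the mean of these epidermal genes, the mean of the 10 genes on the log2 scale was 0.29, 0.21 and 0.20 in UNC5, -0.82, -0.80 and -0.85 in PATR1 and -0.11, -0.15 and -0.11 in WT. The order of the genotypes without overlap was also seen in this measure. The epidermal mean weights all 11 genes equally, from ifa-3 with 0.62 CPM in PATR1 to vab-10 with 922 CPM in UNC5. The part of the amount of epidermis in the changes of the 10 genes was not tested.

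Germline and yolk genes moved strongly beside the 10 genes. The summed level of 9 sperm genes was 67.4 to 70.7 CPM in UNC5, 188 to 190.0 CPM in PATR1 and 291 to 295 CPM in WT. That of 10 oocyte and embryo genes was 4526 to 4620 CPM in UNC5, 5746 to 5845 CPM in PATR1 and 2745 to 2863 CPM in WT. That of 6 yolk protein genes, which are expressed in the intestine, was 35050 to 36220 CPM in UNC5, 72740 to 79150 CPM in PATR1 and 60000 to 60630 CPM in WT. In UNC5 all 9 sperm genes fell, with a median log2 fold change of -2.33, all 10 oocyte and embryo genes rose, with a median of 0.69, and all 6 yolk genes fell, with a median of -0.83. In PATR1 8 of the 9 sperm genes fell and 1 did not pass, with a median of -0.76, all 10 oocyte and embryo genes rose, with a median of 1.03, and 3 yolk genes rose and 3 fell, with a median of -0.02. No gene of these 3 lists was at 0 in any library, and their part in the changes of the 10 genes was not tested.

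For the 3 most abundant of the 10 genes by mean CPM, the genes with the most similar pattern over the 9 libraries were taken from 6501 candidates. The measure was the distance between centred log2 CPM values, where 0 is the same pattern. Candidates were tested genes outside the 10 with a mean of at least 5 CPM. Genes with a clone name or a dot in the symbol were left out, so closer genes may exist among those not compared. Nearest to mlt-11 were twk-7 with a distance of 0.157, let-4 with 0.173 and lec-4 with 0.190. Nearest to noah-1 were ptr-3 with 0.155, che-14 with 0.164 and src-2 with 0.203. Nearest to noah-2 were grl-10 with 0.121, zmp-2 with 0.136 and flp-9 with 0.165. grl-10, the closest of these 9, averaged 24.7 ± 0.85 CPM in UNC5, 9.34 ± 0.41 CPM in PATR1 and 18.9 ± 0.40 CPM in WT (SD, n = 3 each). All 9 share the libraries and the 3 genotypes with the genes they resemble.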

How the data were processed

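The authors deposited raw read counts per gene, made with FastQC 0.11.9, cutadapt 3.5 and STAR 2.7.11b on WBcel235, per the submitters' processing notes, while the design text names WS288. Reverse-strand counts were used, since their totals were at least 5 times those of the opposite strand. Annotation was Ensembl release 115 of WBcel235.

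All 9 libraries were fitted together with edgeR 4.0.16 (R 4.3.3): filterByExpr, TMM factors from 0.954 to 1.04, a robust quasi-likelihood test, and Benjamini-Hochberg adjustment over 17512 genes per comparison. CPM use the same scaled library sizes, and RPKM divide by summed exon length. The pipeline was tested on simulated data. Alternatives were DESeq2 1.42.0, other scalings (library sizes alone; relative log expression), a fit without the low-count filter, unstranded counts, fits on 6 libraries, a replicate block and leaving out each library. The SE and p-values cover counting error and the variation among these libraries, and no other source.

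The members and lists were chosen with earlier results of these data known. Named genes are the 10, unc-5 and patr-1, up to 4 genes a list by adjusted p, and the 3 nearest patterns of 3 genes. Of 107 listed context genes, 2 (ifa-2 and trp-3) matched no symbol. Sequences were not analysed here.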

Additional observations from a re-analysis of the deposited data

Results flagged for a closer look

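Reads on the strand opposite to the annotated gene, which entered none of the reported values and only the alternative with unstranded counts, made up a larger median share in UNC5 and in PATR1 than in WT. Over 4288 coding genes with a mean of at least 1000 counts and no annotated gene on the other strand (piRNA genes disregarded), the median share of such reads per library averaged 0.437% ± 0.070 in UNC5, 0.149% ± 0.025 in PATR1 and 0.0645% ± 0.016 in WT (SD, n = 3 each). The share was above all WT libraries in all UNC5 libraries for 78.6% of these genes and in all PATR1 libraries for 41.2%. Of the moulting and matrix genes, 7 met the criteria, and every UNC5 library was above every WT library for all 7, and every PATR1 library for 2 of the 7, with at most 2.55% of reads on the opposite strand in UNC5, 1.08% in PATR1 and 0.552% in WT. This pattern and its gene selection were noticed after the data were seen, and its part in the results was not tested.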

How the results depend on the processing

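For the 10 genes, 480 values were recomputed over 3 comparisons and 16 alternatives each, and 479 kept their direction and passed. The other was mlt-11 in UNC5 against WT with no low-count filter, at 0.07 (adjusted p = 0.051). Leaving out 1 library gave 0 to 1 genes of the 10 beyond 2-fold in UNC5 against WT: nas-37 crossed the mark without WT replicate 2 or UNC5 replicate 3. nhr-23 in PATR1 against WT was -0.054 with library sizes alone (adjusted p = 0.20). Its fall in UNC5 did not pass without WT replicate 3 (adjusted p = 0.079), UNC5 replicate 2 (adjusted p = 0.057) or UNC5 replicate 3 (adjusted p = 0.059), and fcho-1 and mlt-9 did not pass in UNC5 against WT with no low-count filter. Over all alternatives, 2 to 4 of the 10 genes lay beyond 2-fold in PATR1 against WT, and 8 to 9 in PATR1 against UNC5. In PATR1 against WT, the log2 fold change ran from -1.123 to -0.982 for noah-2 and from -1.019 to -0.879 for mlt-10. In PATR1 against UNC5, that of mlt-8 ran from -1.172 to -0.954. The cause was not tested. Deviations of same-numbered libraries correlated at -0.073 to 0.073, so no shared deviation by replicate number was seen. The labels do not say whether same-numbered libraries were handled together, and these correlations cannot tell. With the replicate block 3646 genes were called in UNC5 against WT, beside 3645 without it, and no call of the 10 genes changed. bli-5, at 111 reads in its lowest library, has the widest errors, while the other 9 rest on at least 617 reads in each library.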
